A study of Mus musculus with 6 samples.

Results

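The miR-30 family of mouse primary mesangial cells was examined in 3 Control and 3 TGF-beta1 miRNA-Seq samples. The Control samples were taken as untreated from their treatment label and the study's methods, since the protocol text attached to all 6 samples describes the TGF-beta1 treatment. Every row of a miR-30a, miR-30b, miR-30c, miR-30d or miR-30e hairpin was taken, whichever arm it named, which gave 11 of the 778 listed mature miRNAs: mmu-miR-30a-5p, mmu-miR-30a-3p, mmu-miR-30b-5p, mmu-miR-30b-3p, mmu-miR-30c-5p, mmu-miR-30c-1-3p, mmu-miR-30c-2-3p, mmu-miR-30d-5p, mmu-miR-30d-3p, mmu-miR-30e-5p and mmu-miR-30e-3p. The species prefix is left out from here on. Mesangial cells hold the capillaries of the kidney glomerulus together and can contract, and TGF-beta1 is a cytokine that drives them to make extracellular matrix. Both groups were grown in high glucose (25.5 mM) with 20% foetal bovine serum and used at passages 3 to 6, and the TGF-beta1 group received 10 ng/ml for 72 h. No mouse strain, age or genotype was given in the sources used here, and the miRNA samples were said only to be in triplicate (the study calls its replicates biological where it describes its peak data), so p-values measured only the spread between these samples, which may be technical.

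A miRNA hairpin is cut into a 5p and a 3p strand, and one of them, the guide, is usually kept by an Argonaute protein and pairs with target mRNAs through its seed, bases 2 to 8. The other strand, the passenger, is usually degraded, although many hairpins keep some of both. In the miR-30 family the 5p strands are the usual guides and have a seed in common. The family is abundant in the kidney, and targets described for it include Snai1, a repressor of epithelial genes, and CTGF, a matrix-promoting growth factor.

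The mature strands are shown because they set which rows act on the same targets and which rows are close enough in sequence to share reads. In the RefSeq table of GRCm38.p6, 7 of the 11 rows matched, and these are written 5′ to 3′ with the seed in capitals.
miR-30a-5p: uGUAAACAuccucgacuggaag
miR-30e-5p: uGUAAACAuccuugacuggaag
miR-30c-5p: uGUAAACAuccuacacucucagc
miR-30a-3p: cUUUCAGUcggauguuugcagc
miR-30e-3p: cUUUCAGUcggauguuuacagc
miR-30c-2-3p: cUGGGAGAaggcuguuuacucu
miR-30c-1-3p: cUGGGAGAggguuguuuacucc
The other 4 rows were miR-30b-5p, miR-30b-3p, miR-30d-5p and miR-30d-3p.

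These 7 strands carried 3 seeds. The 3 guides read GUAAACA and were identical over their first 12 bases. The passengers of miR-30a and miR-30e shared UUUCAGU, and those of the 2 miR-30c hairpins shared UGGGAGA, so the arms of 1 hairpin address different seed matches. Counting from 1 at the 5′ end, miR-30a-5p and miR-30e-5p differed by C13U alone, miR-30a-3p and miR-30e-3p by G18A alone, and miR-30c-2-3p and miR-30c-1-3p by A9G, C12U and U22C. How reads that matched more than 1 miRNA were counted was not given in the sources used here, so the division of reads within each of these pairs is uncertain. For the miR-30b and miR-30d rows, which had no matched sequence, closeness to other rows could not be examined, and their reads may be shared too. Among the listed rows that matched the RefSeq table, none outside the family carried any of the 3 seeds. No miR-30 row had values identical to those of another row.

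The hairpins lie in 3 clusters. In the NCBIM37 assembly with GENCODE vM1 genes, the build named for the RNA reads of the study (MM9), Mir30a lies at chr1:23279108-23279178 and Mir30c-2 at chr1:23298540-23298623, both on the plus strand, 19516 bp from end to end and inside no annotated gene. Mir30c-1, at chr4:120442139-120442227, and Mir30e, at chr4:120445211-120445302, span 3164 bp on the minus strand, within an intron of the protein-coding gene Nfyc, a subunit of the CCAAT-binding factor NF-Y. The miR-30b and miR-30d hairpins form the third cluster, on chromosome 15. Both miR-30c hairpins give the same 5p strand, so miR-30c-5p has a single row and could not be assigned to a locus.

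Values were RPM, the reads of a row per 1000000 reads of its library, where the total behind the scaling, recovered from the steps between low values, was 16478281 to 20169254 reads, and 1 read was worth 0.0496 to 0.0607 RPM. The mesenchymal or contractile markers, 9 of 9 listed, summed to 18972.4 to 20614.7 RPM in Control and 19716.9 to 23370.5 in TGF-beta1, mostly miR-21-5p. By limma 4 of the 9 fell (miR-199a-3p, miR-199a-5p, miR-199b-3p and miR-10b-5p) and 2 rose (miR-145-5p and miR-125b-5p), with a median log2 change of -0.20. Of these, miR-199a-3p and miR-199b-3p had nearly the same values (601.3 RPM each in Control, 484.0 and 483.9 in TGF-beta1). They may hold the same reads, so 1 signal may have been counted and summed as 2 markers. Epithelial markers summed to 315.4 to 329.6 and 343.0 to 367.4 RPM, nearly all of it miR-192-5p. Of the 5 that could be tested, miR-200a-3p, miR-200b-3p and miR-429-3p fell and miR-192-5p and miR-194-5p rose by limma. For both marker lists the background was 31.9% of all tested miRNAs called lower and 17.4% called higher by limma. Of the other epithelial markers, miR-200c-3p, miR-141-3p, miR-203-3p and miR-205-5p each averaged under 0.1 RPM. The endothelial markers did not exceed 0.297 RPM in any library, the 5 listed of 7 blood markers summed to 4.55 to 5.28 RPM in Control and 3.13 to 3.39 in TGF-beta1, and the 2 neuronal markers, miR-124-3p and miR-9-5p, averaged at most 1.38 RPM each. Of 5 striated muscle markers 3 were listed. Of these miR-206-3p averaged 3502.3 and 3363.3 RPM in Control and TGF-beta1, miR-1a-3p 9.98 and 10.8, and miR-133a-3p 0.0807 and 0.0381. The liver miRNA miR-122-5p was at 24.2 to 27.3 RPM in Control and 13.1 to 13.9 in TGF-beta1. Which reads that total counts was not given in the sources used here. The share of it outside the listed rows also moved with treatment, from 20.4% ± 0.142 in Control to 27.7% ± 0.752 in TGF-beta1 (SD, n = 3 each). The part of these movements in the results was not tested.

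Of the 11 rows 10 could be tested, and all 10 fell with TGF-beta1, in guide and passenger arms and at all 3 loci. By limma on log2(RPM + 1) over 408 miRNAs with enough reads, each had an adjusted p under 0.05, and in each the 3 TGF-beta1 libraries lay below the 3 Control libraries. The median log2 change was -0.77 over the family, against -0.17 over all 408 miRNAs. Many miRNAs changed: 31.9% of the 408 were called lower and 17.4% higher, and 36.0% had every TGF-beta1 library below every Control library. Changes on this scale understate those of rows with few reads. Fewer cells with the miRNA and less of it per cell cannot be told apart in bulk RNA. No member was called higher by limma, edgeR or DESeq2, nor had a positive change at an unadjusted p under 0.05.

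**Figure D1:**
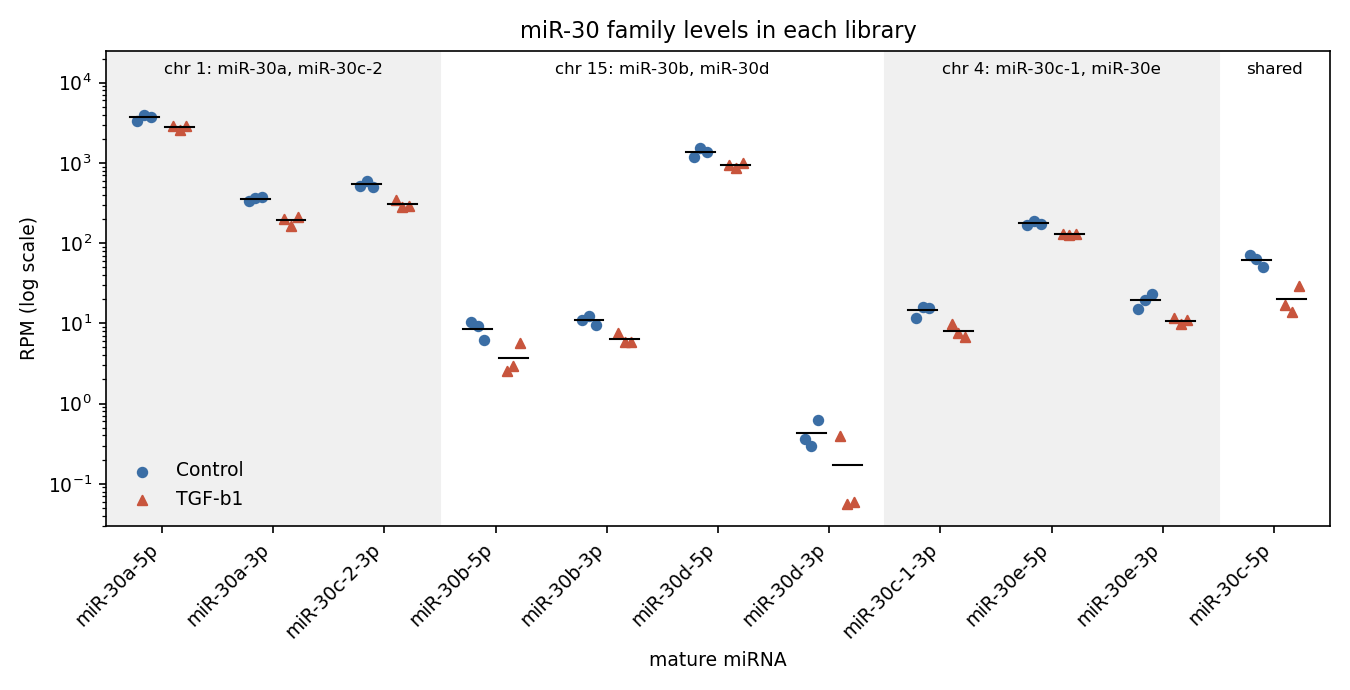
Level of each miR-30 row (log10 axis, RPM), 1 point per library, with Control and TGF-beta1 side by side and lines at the group means. The family runs from 3682.2 RPM for miR-30a-5p in Control to 0.17 RPM for miR-30d-3p in TGF-beta1, and the groups overlap in miR-30d-3p alone.

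The most abundant guide was miR-30a-5p, which ranked 20th of the 778 rows by mean level. It was read at 3348, 3988 and 3711 RPM in Control and at 2861, 2547 and 2880.1 RPM in TGF-beta1. The groups were separate, and the second TGF-beta1 library was the lowest. Its mean was 75.0% of the Control mean, or -0.41 ± 0.08 in log2 (SE, adjusted p = 0.0051 by limma). This was the smallest change among the 10 tested members. It did not pass under TMM, upper-quartile or median-of-ratios scaling (limma log2 changes of -0.26, -0.28 and -0.20, adjusted p = 0.0551, 0.0735 and 0.116). Nor did it pass by edgeR (-0.27, adjusted p = 0.0503) or DESeq2 (-0.20, adjusted p = 0.275), and scaling to the sum of the listed rows made it -0.27.

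The more abundant guide of the chromosome 15 cluster, miR-30d-5p, was the second most abundant member. It was at 1196, 1525 and 1350.2 RPM in Control and at 948, 872 and 985 RPM in TGF-beta1. The groups were separate. The means were 1357 ± 164 RPM and 935 ± 57.8 RPM (SD, n = 3 each), or -0.53 ± 0.10 in log2 (SE, adjusted p = 0.00404 by limma). Under median-of-ratios scaling the change was -0.32, and by DESeq2 it was also -0.32 and did not pass (adjusted p = 0.0647).

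The guide miR-30e-5p, from the Nfyc intron, was less abundant. Its 3 Control libraries gave 169, 188 and 174 RPM, and its 3 TGF-beta1 libraries 130.0, 125.1 and 132 RPM. The means were 177 ± 10.1 and 129 ± 3.37 RPM, or -0.45 ± 0.09 in log2 (SE, adjusted p = 0.00532 by limma). As for miR-30a-5p, from which it differs by 1 base, the call was lost under upper-quartile and median-of-ratios scaling (-0.32 and -0.24, limma adjusted p = 0.0518 and 0.0772) and by DESeq2 (-0.24, adjusted p = 0.181). Under TMM scaling the change was -0.30.

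The 2 scarce guides had the largest changes in the reported fit. The row miR-30c-5p, the joint product of both miR-30c hairpins, was at 70.8, 63.1 and 49.8 RPM in Control and 17.1, 14.0 and 29 RPM in TGF-beta1. The third library was the lowest of its group in Control and the highest in TGF-beta1, and the groups still did not overlap. The mean fell to 32.7% of Control, or -1.62 ± 0.26 in log2 (SE, adjusted p = 0.00183 by limma), and 3.19% of the tested miRNAs fell more. Leaving out the third TGF-beta1 library gave -1.91, and leaving out the second gave -1.40.

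The guide miR-30b-5p was the scarcest tested member, at 10.3, 9.29 and 6.18 RPM in Control and 2.53, 2.96 and 5.62 RPM in TGF-beta1. Its highest treated library lay just under its lowest untreated one, and both were the third of their group, as in miR-30c-5p. The log2 change was -1.06 ± 0.27 (SE, limma adjusted p = 0.0137). It no longer passed without Control replicate 1, Control replicate 2 or TGF-beta1 replicate 2 (limma adjusted p = 0.0548, 0.0586 and 0.0506). With a pseudocount of 10 the change of miR-30b-5p was -0.44, smaller than that of miR-30d-5p, and without TGF-beta1 replicate 1 it was -0.88, smaller than those of miR-30a-3p, miR-30c-1-3p and miR-30c-2-3p. These 2 guides were the only members called with a log2 change beyond -1, a rule that 7.84% of the tested miRNAs met, while 4.41% were called with a change above 1. Without Control replicate 1, Control replicate 2, TGF-beta1 replicate 1 or TGF-beta1 replicate 2, only miR-30c-5p met it. The ratio of miR-30b-5p to miR-30c-5p was 0.145, 0.147 and 0.124 in Control and 0.148, 0.212 and 0.194 in TGF-beta1. Every TGF-beta1 ratio was above every Control ratio.

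**Figure D2:**
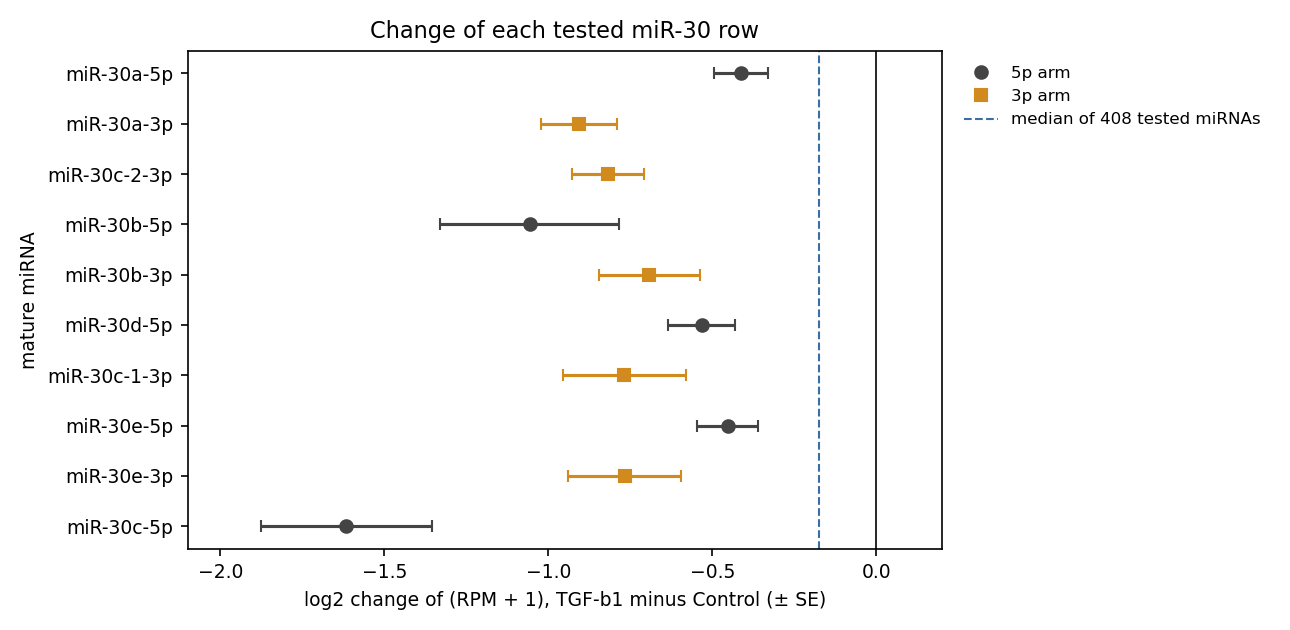
Log2 change of RPM + 1 (x axis, TGF-b1 minus Control, ± SE from limma) for the 10 tested members, by locus, with circles for 5p and squares for 3p arms and a dashed line at the median of the 408 tested miRNAs (-0.17). The squares lie together between -0.91 and -0.69, while the circles spread from -1.62 to -0.41.

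The log2 changes of the passenger arms ran from -0.91 to -0.69 over all 3 loci, a narrower range than that of the guides. With a pseudocount of 10 the range was -0.88 for miR-30a-3p to -0.35 for miR-30b-3p, with -0.43 for miR-30c-1-3p and -0.49 for miR-30e-3p. The median over the 5 tested 3p rows was -0.77, and over the 5 guides -0.53. The row miR-30a-3p was at 335, 366 and 375.01 RPM in Control and at 199.1, 165 and 211 RPM in TGF-beta1. Its groups were far apart, with a mean 53.5% of Control, or -0.91 ± 0.12 in log2 (SE, adjusted p = 0.00066 by limma).

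The neighbouring hairpin's 3p arm, miR-30c-2-3p, was the most abundant passenger and the third most abundant member. It was at 520.4, 600.2 and 504 RPM in Control and at 345, 282 and 294 RPM in TGF-beta1, with no overlap. The log2 change was -0.82 ± 0.11 (SE, limma adjusted p = 0.00091). The ratio of miR-30c-2-3p to miR-30a-3p was 1.55, 1.64 and 1.34 in Control and 1.73, 1.71 and 1.39 in TGF-beta1. These ratios overlapped between the groups, although each passenger fell.

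The passengers of the other loci were scarcer. The row miR-30e-3p was at 15.2, 19.8 and 23.0 RPM in Control and 11.5, 9.82 and 11.1 RPM in TGF-beta1, or -0.77 ± 0.17 in log2 (SE, adjusted p = 0.00758 by limma). For miR-30c-1-3p, 11.6, 16.2 and 15.7 RPM in Control stood against 9.92, 7.65 and 6.73 RPM, or -0.77 ± 0.19 in log2 (SE, adjusted p = 0.0106 by limma). All treated libraries of both were below all untreated ones, though by little in the closest pair of libraries.

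On chromosome 15, miR-30b-3p was at 11.1, 12.2 and 9.59 RPM in Control and 7.49, 5.86 and 5.91 RPM in TGF-beta1. Its log2 change was -0.69 ± 0.15 (SE, limma adjusted p = 0.00752, DESeq2 adjusted p = 0.0506). The 11th row, miR-30d-3p, was read 6, 5 and 11 times in Control and 8, 1 and 1 times in TGF-beta1. Its groups overlapped and it was too low for the test. Fitted without the filter on low counts, its log2 change was -0.29 (limma adjusted p = 0.144), and no difference was detectable at this depth.

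Whether the guides fell by unequal amounts was tested on the difference between their log2 changes, over 10 pairs. The change of miR-30c-5p was more negative than that of each other guide, by 1.20 ± 0.32 against miR-30a-5p, 1.16 ± 0.32 against miR-30e-5p, 1.08 ± 0.33 against miR-30d-5p and 0.56 ± 0.14 against miR-30b-5p (SE). Each gave an exact permutation p of 0.1, the smallest that 3 against 3 allows, and 0.2 after adjustment over the 10 pairs, so no pair could pass. The abundant guides differed least, by 0.04 ± 0.05 between miR-30a-5p and miR-30e-5p (exact permutation p = 0.5) and 0.12 ± 0.03 between miR-30a-5p and miR-30d-5p (exact permutation p = 0.1). Summed by locus, the change of the chromosome 15 guides was more negative than that of miR-30a-5p by 0.12 ± 0.03 (exact permutation p = 0.1, adjusted over 3 pairs 0.3). Their difference from miR-30e-5p was -0.08 ± 0.06 (exact permutation p = 0.3). Nearly all of that sum was miR-30d-5p (1357.1 RPM in Control, against 8.58 for miR-30b-5p), so it largely repeated the pairs with miR-30d-5p.

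Summed over the family, the 5p arms stood at 5286.0 ± 489.8 RPM in Control and 3850.0 ± 253.4 RPM in TGF-beta1, and the 3p arms at 945.3 ± 62.2 and 524.2 ± 51.8 RPM (SD, n = 3 each). These were log2 changes of -0.46 ± 0.096 and -0.85 ± 0.099 (SE). Each gave an exact permutation p of 0.1, the smallest that 3 against 3 allows, so neither sum could pass. The 5p change was -0.30 under TMM, -0.32 under listed-row and upper-quartile and -0.24 under median-of-ratios scaling, and the 3p change between -0.72 and -0.64. The 3p arms made up 15.7%, 14.9% and 14.9% of the family's reads in Control and 12.7%, 11.7% and 11.6% in TGF-beta1, without overlap. As a share of all reads the family went from 0.623% ± 0.055 to 0.437% ± 0.0298, and as a share of the listed miRNA reads from 0.783% ± 0.0705 to 0.605% ± 0.0466. Within the 5p sum, miR-30a-5p was at 69.7% and 71.8% and miR-30d-5p at 25.6% and 24.3% in Control and TGF-beta1, while miR-30c-5p went from 1.17% to 0.514%. Within the 3p sum, miR-30c-2-3p was at 57.2% and 58.5% and miR-30a-3p at 38.0% and 36.6%. Both sums and the 3p share thus mostly follow these abundant rows. The order of the 11 rows by mean RPM was the same in both groups. Among neighbours in that order, miR-30e-3p with miR-30c-1-3p and miR-30c-1-3p with miR-30b-3p overlapped in both groups, and miR-30b-3p with miR-30b-5p in Control.

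Guide and passenger can also be set against each other within a hairpin, a ratio that needs no scaling between libraries. The miR-30c-1 and miR-30c-2 pairings both use the single miR-30c-5p row. That row is shared by both hairpins, so neither pairing is a ratio within 1 hairpin alone. The 3p arm exceeded the 5p arm on average in the miR-30b and miR-30c-2 pairings, 2 of the 5 tested, against 46.4% of all hairpins with both arms tested, 58 in number. The ratio of miR-30c-2-3p to miR-30c-5p was 7.35, 9.52 and 10.1 in Control and 20.2, 20.2 and 10.1 in TGF-beta1. So the strand usually named the passenger outnumbered the guide row in every library, although that guide row also holds the reads of miR-30c-1. The third TGF-beta1 library stood level with the highest Control library and apart from the other two.

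The ratio of miR-30a-3p to miR-30a-5p was 0.1, 0.0917 and 0.101 in Control and 0.0696, 0.0648 and 0.0734 in TGF-beta1. Here the passenger fell further than the guide, and the groups were separate. The log2 change of the 3p to 5p ratio was -0.49 ± 0.16 for miR-30a (SE, limma adjusted p = 0.0447) and 0.80 ± 0.27 for miR-30c-2 (SE, limma adjusted p = 0.0498), 2 of 5 family hairpins called, where 28% of all tested hairpins (35) were called. The 2 called ratios moved in opposite directions, but that of miR-30c-2 was taken against the shared miR-30c-5p row, which fell most of all members. The other hairpins did not pass, with 0.85 ± 0.35 for miR-30c-1 (limma adjusted p = 0.0976), 0.36 ± 0.31 for miR-30b (limma adjusted p = 0.404) and -0.31 ± 0.21 for miR-30e (limma adjusted p = 0.299). Both calls were near the threshold and ended with most changes of setting. Leaving out any 1 library except TGF-beta1 replicate 3 left no family hairpin called, and leaving out that library made the change of miR-30c-2 1.12 (limma adjusted p = 0.00532) and that of miR-30c-1 1.25 (limma adjusted p = 0.0101), with 2 hairpins called and miR-30a no longer among them.

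**Figure D3:**
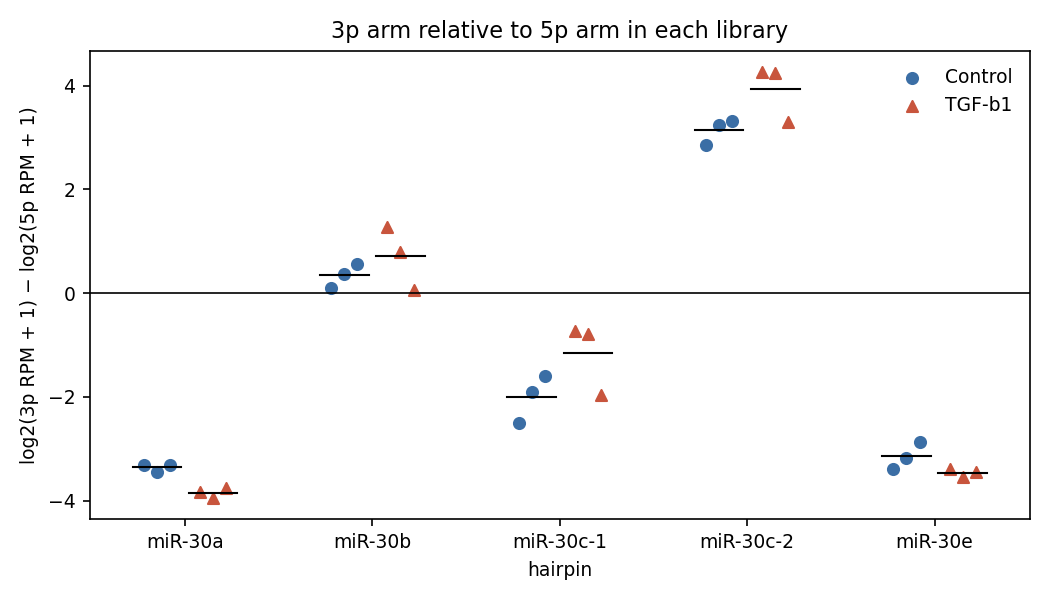
Log2 ratio of the 3p to the 5p arm (y axis, RPM + 1 in each arm) for each miR-30 hairpin, 1 point per library, Control beside TGF-b1. The miR-30a ratios are separate and lower in TGF-beta1, and the third TGF-beta1 library of the miR-30c-2 pairing sits with the Control libraries.

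How many members passed depended on how libraries were scaled. Of the 10 tested members, 9 were called lower under TMM, 8 under upper-quartile, 8 under median-of-ratios and 10 under the sum of the listed rows, against a background of 25.7%, 25.5%, 22.3% and 25.5% of tested miRNAs. By edgeR with TMM 9 were called lower (background 24.8%), and by DESeq2 6 (background 17.6%). The median change of all tested miRNAs went from -0.17 to between -0.09 and -0.001 under these settings, and all 10 members stayed below it and below 0 in each. DESeq2 kept miR-30c-5p, miR-30b-5p and 4 passengers, and no longer called the 3 abundant guides or miR-30b-3p.

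**Figure D4:**
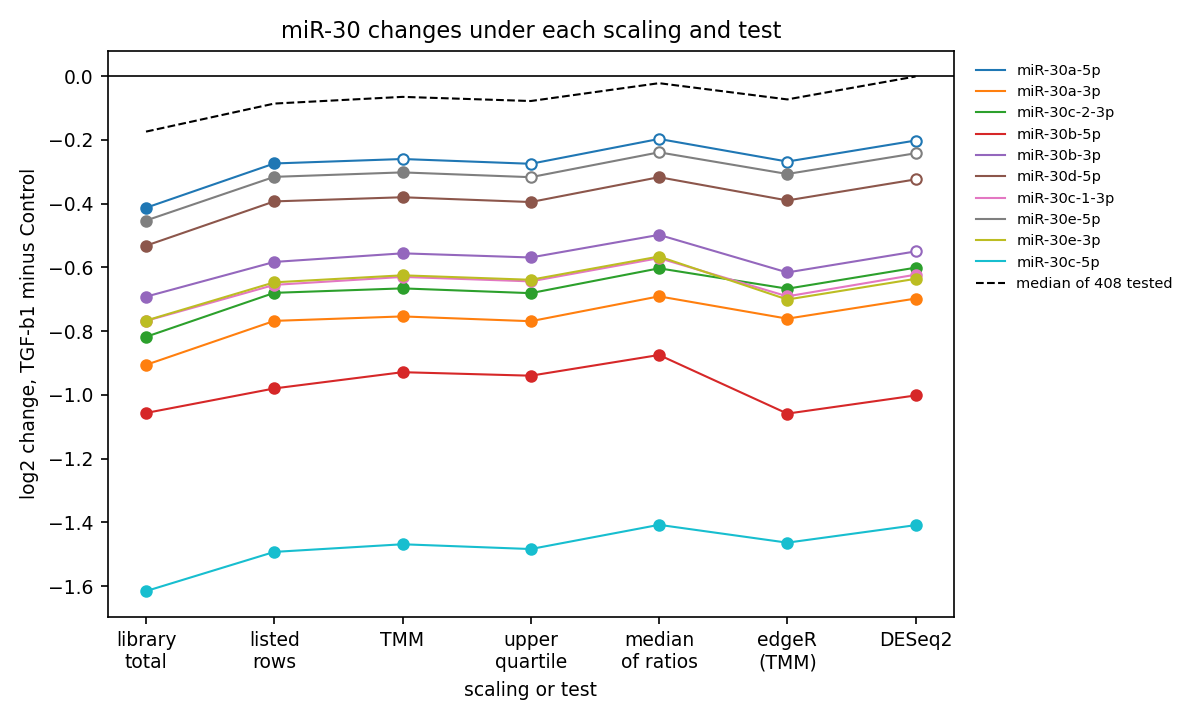
Log2 change of each tested member (y axis) under the per-million values and under each other scaling or count model, with the median of all tested miRNAs marked. All points lie below 0 in every column, and miR-30a-5p lies closest to it.

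Other miRNAs with published roles in kidney fibrosis were read beside the family, from lists chosen with earlier results of these data known. Of 10 profibrotic miRNAs 9 were listed and 6 tested, and 3 rose: miR-433-3p by a log2 change of 1.41, miR-382-5p by 0.87 and miR-192-5p by 0.24 (limma adjusted p = 4.62e-05, 0.00325 and 0.0396), where 17.4% of all tested miRNAs were called higher. The abundant miR-21-5p, at 15380.8 and 16920.5 RPM, had a change of 0.13 that did not pass (limma adjusted p = 0.163), though it was called higher under each of the other library scalings. Of 12 antifibrotic miRNAs, all listed, 10 were tested and 9 fell (7 to 9 under the other library scalings), where 31.9% of all tested miRNAs were called lower (22.3% to 25.7% under those scalings). The median log2 change of the list was -0.70, and that of all tested miRNAs -0.17. Among those that fell were miR-29b-3p and miR-29c-3p, which target collagen mRNAs (-0.62 and -0.75), and miR-200a-3p and miR-200b-3p, which target the repressors of epithelial genes Zeb1 and Zeb2 (-2.64 and -2.27). The exception was miR-29a-3p, which rose by 0.21 (limma adjusted p = 0.032). The call of miR-192-5p was lost whichever library was left out, and that of miR-29a-3p without Control replicate 1 or 3 or TGF-beta1 replicate 2 or 3.

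The miRNAs whose profile over the 6 libraries was most like that of the summed miR-30 5p arms were miR-222-3p, miR-185-5p, miR-125a-5p, miR-674-5p and miR-99a-5p. Likeness was the root-mean-square distance between log2 profiles, each centred on its own mean, over 74 miRNAs with a mean of at least 100 RPM. The distances were 0.0384, 0.097, 0.101, 0.116 and 0.117, against a median of 0.276. Their log2 changes were -0.42, -0.46, -0.39, -0.44 and -0.36, like those of miR-30a-5p, miR-30d-5p and miR-30e-5p. This likeness follows from the choice, since the profiles include the step between the groups. The 6 points of every profile share the library totals. By the same distance miR-30a-5p, miR-30d-5p and miR-30e-5p lay 0.0227, 0.0463 and 0.0486 from the sum that contains them. The scarce guides miR-30b-5p and miR-30c-5p lay 0.457 and 0.663 from it, beyond the median of 0.276, so the likeness does not extend to them.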

How the data were processed

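Small RNA libraries were sequenced on an Illumina HiSeq system. The authors trimmed adaptors, removed reads under 18 nt and low-quality reads, matched the rest to miRBase 17 with Bowtie (version and mismatch setting not given in the sources used here) and deposited 1 table whose header says TPM, which has no length term and is RPM (per 1000000 reads). Replicates were not pooled. Whole reads were recovered from the RPM steps (100.0% of values whole within 0.002 reads). The design had allowed for counts or RPM; the table held RPM, so limma (3.58.1, R 4.3.3) was fitted with a mean-dependent prior to log2(RPM + 1) over 408 rows kept by edgeR's filter (minimum count 10), with Benjamini-Hochberg adjustment and a threshold of 0.05. The 3p to 5p ratio was fitted by limma over 125 hairpins, its prior following the mean level of both arms. Pairs of members were compared by two-sided exact permutation tests. Alternatives were other scalings, pseudocounts of 0.1 and 10, all rows unfiltered, rows averaging 50 reads or more, edgeR (4.0.16) and DESeq2 (1.42.0) on the recovered reads, a replicate block and leaving out each library. On simulated counts limma recovered 95.4% of 197 miRNAs changed by a log2 of 1 among 401 and called 5 unchanged ones. The ratio fit recovered 83.3% of 30 hairpins among 125 and called 1 unchanged one. The simulated spread was set alike for all miRNAs and all changes had that size, so these shares need not hold for the data. Every row of the family is named, and the markers and fibrosis lists are named as listed. The members and lists were chosen with earlier results of these data known. A single value of 0 allows up to 3 reads (0.149 to 0.182 RPM), counting error only. Replicate libraries differed by more than sampling noise (chi-square per degree of freedom 43.2 to 137.9). RefSeq matched 581 of the 778 rows.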

Additional observations from a re-analysis of the deposited data

Results flagged for a closer look

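The table lists miRNAs only, and the reads outside it were tested in no comparison above, although they enter the total behind every RPM value. They made up 20.4% ± 0.142 of the total recovered from the scaling in Control and 27.7% ± 0.752 in TGF-beta1 (SD, n = 3 each), 7.32 percentage points higher, in all 3 TGF-beta1 libraries (exact permutation p = 0.1, the smallest possible). Which reads that total counts was not given in the sources used here, what they are was not analysed, and the miR-30 values were divided by it.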

How the results depend on the processing

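The miR-30 log2 changes kept their negative sign for all 10 tested members under every alternative, and 157 recomputed calls stayed on their side of the threshold while 13 lost it. DESeq2 moved the count of members called lower to 6, of which 2 had a log2 change beyond -1. The count beyond -1 was 1 under TMM, upper-quartile, median-of-ratios and listed-row scaling and with a pseudocount of 10. The count of hairpins with a changed 3p to 5p ratio was 2 in the reported fit, 0 with a pseudocount of 0.1, 3 with a minimum mean of 50 reads, 0 with a prior without a trend, 1 with a prior following the ratio (the last 2 chosen after seeing the data), and 0 to 2 with 1 library left out. The difference between miR-30b-5p and miR-30d-5p turned from -0.53 to 0.088 with a pseudocount of 10 (exact permutation p = 0.7). The causes were not tested. The fewest reads in all were those of miR-30d-3p (32) and miR-30b-5p (633), and how far low counts limit these rows was not tested.

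Same-numbered Control and TGF-beta1 samples did not deviate together (r = -0.0841, -0.208 and -0.345). With 3 libraries per group these correlations cannot decide whether the numbers pair the samples. With a replicate block 10 members were called lower and 0 hairpins had a changed ratio.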
